A study of Homo sapiens with 10 samples.

Results

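Short gaps are places where the edges of neighbouring protein-coding genes lie at most 1000 bp apart. They were taken as every space of 1 to 1000 bp between consecutive, non-overlapping blocks of protein-coding RefSeq genes (GRCh38.p14) on chromosomes 1 to 22 and X, and each was widened by 500 bp a side. There were 2077 such gaps among 17234 spaces between neighbouring gene blocks, and 3807 of 19974 genes had an edge in at least 1 of them. The gaps ran from 1 to 997 bp with a median of 266 bp. Strand split them into 785 head-to-head gaps, in which both genes start at the gap, 404 tandem gaps, in which a gene ends and the next starts, and 366 tail-to-tail gaps, in which both genes end. In the other 522 gaps strand was not read for at least 1 of the genes, and none of the 62 gaps on chromosome 8 entered the head-to-head class.

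The series used chromatin immunoprecipitation with sequencing in HEK293T, a line of human embryonic kidney cells that express large T antigen of the virus SV40. WDR5 was precipitated from EMBOW knockout (KO) cells and from wild-type (WT) cells, and the tagged microprotein EMBOW-FH was precipitated on anti-FLAG beads from a stably expressing HEK 293T line, whose list is called EMBOW-F here. The chromatin came from nuclei digested with micrococcal nuclease, the labels give 10 samples with 1 library per group, and H3K4me3 and input libraries were not analysed here. The labels do not say whether the KO cells are 1 clone, and none of the lists checks the knockout. Each list gives summits, the 1-bp positions at which a peak is highest, with the peak caller's −log10 q. There were 21055 KO, 17660 WT and 93143 EMBOW-F summits, with a median −log10 q of 6.28, 6.53 and 3.25. With 1 library per group there is no replicate check, no p-value was computed, and every 95% interval given covers counting error only.

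WDR5 is a WD40-repeat protein that holds together the histone methyltransferase complexes of the COMPASS family, which place methyl groups on lysine 4 of histone H3 at active promoters. Mammalian genomes hold many gene pairs that start back to back from a shared stretch of DNA, called bidirectional promoters. Such promoters are mostly CpG-rich and poor in TATA boxes, and many serve housekeeping genes of DNA repair, mitochondria and protein synthesis.

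The promoters of 5 head-to-head gaps are printed here because the results below turn on them. Each is the 300 bp RefSeq promoter (GRCh38.p14) of the gene named, 5′ to 3′ on that gene's strand, with its own start at base 251. Capitals mark matches on either strand to the GC box GGGCGG, the NF-Y motif CCAAT, the E-box CACGTG, the TATA box TATAAA and a longer motif of YY1. The ETS motif CCGGAAG and a longer motif of NRF1 were searched too and matched none of the 5. The RPL35-ARPC5L gap held the best-ranked WDR5 summits of any head-to-head gap in both genotypes, and RPL35 starts at base 78 on the other strand. LIG4-ABHD13 had the best-ranked KO summit among head-to-head gaps without a WT summit within 5 kb, and LIG4 starts at base 208. RPUSD4-FAM118B had the best-ranked WT summit among those without a KO summit within 5 kb, and FAM118B starts at base 177. HNRNPDL-ENOPH1 was the only gap of the 2077 with an EMBOW-F summit, and HNRNPDL starts at base 123. H2BC8-H2AC8, a histone gene pair, held no summit of any list, and H2BC8 starts at base 18.
ARPC5L, chr9:124861880-124862179, plus strand: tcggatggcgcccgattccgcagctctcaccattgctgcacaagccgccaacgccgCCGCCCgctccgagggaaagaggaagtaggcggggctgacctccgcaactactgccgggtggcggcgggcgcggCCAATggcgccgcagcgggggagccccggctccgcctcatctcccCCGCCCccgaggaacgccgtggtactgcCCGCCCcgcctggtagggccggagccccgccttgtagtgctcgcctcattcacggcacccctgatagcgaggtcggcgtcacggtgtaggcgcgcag
ABHD13, chr13:108218142-108218441, plus strand: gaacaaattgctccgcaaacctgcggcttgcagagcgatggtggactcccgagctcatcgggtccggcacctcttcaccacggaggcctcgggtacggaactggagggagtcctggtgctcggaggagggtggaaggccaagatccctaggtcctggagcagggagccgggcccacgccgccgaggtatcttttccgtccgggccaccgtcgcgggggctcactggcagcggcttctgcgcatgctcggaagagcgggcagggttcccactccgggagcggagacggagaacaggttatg
RPUSD4, chr11:126211601-126211900, minus strand: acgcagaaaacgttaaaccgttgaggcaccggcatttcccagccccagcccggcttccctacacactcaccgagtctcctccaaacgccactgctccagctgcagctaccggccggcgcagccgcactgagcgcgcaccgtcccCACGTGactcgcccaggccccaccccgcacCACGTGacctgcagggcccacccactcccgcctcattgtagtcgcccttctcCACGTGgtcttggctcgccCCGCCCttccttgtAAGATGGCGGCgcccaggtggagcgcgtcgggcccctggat
ENOPH1, chr4:82430340-82430639, plus strand: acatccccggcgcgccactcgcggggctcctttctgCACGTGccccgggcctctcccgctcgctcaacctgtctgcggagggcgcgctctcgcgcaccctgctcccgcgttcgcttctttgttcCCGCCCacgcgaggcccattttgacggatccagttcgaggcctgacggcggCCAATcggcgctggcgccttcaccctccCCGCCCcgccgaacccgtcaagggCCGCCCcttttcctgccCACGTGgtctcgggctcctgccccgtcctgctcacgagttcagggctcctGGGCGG
H2AC8, chr6:26216671-26216970, plus strand: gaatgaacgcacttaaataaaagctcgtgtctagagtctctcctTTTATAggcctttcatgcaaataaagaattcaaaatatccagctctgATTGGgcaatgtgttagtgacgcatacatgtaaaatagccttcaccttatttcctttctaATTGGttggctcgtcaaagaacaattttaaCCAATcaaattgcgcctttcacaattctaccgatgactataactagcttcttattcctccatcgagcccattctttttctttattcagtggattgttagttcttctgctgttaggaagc

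The ARPC5L promoter held 3 GC boxes and a CCAAT. The ENOPH1 promoter held 4 GC boxes, 2 E-boxes and a CCAAT, and the RPUSD4 promoter held 3 E-boxes, a GC box and the YY1 motif. The H2AC8 promoter held 3 CCAAT matches and a TATA box in the direction of H2BC8, and the ABHD13 promoter held no match to the 7 motifs. GC content was 37.3% in the H2AC8 promoter and between 66.0 and 72.3% in the other promoters printed. A match is a run of letters and no evidence of binding.

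WDR5 summits were common in short gaps where genes start and rare where genes only end. In KO cells 1074 of 2077 gaps, or 51.7% (95% Clopper-Pearson interval 49.5 to 53.9%), held a WDR5 summit. In WT cells the count was 1006 gaps, or 48.4% (46.3 to 50.6%). Over all 39948 ends of protein-coding genes, the background was 24.3% with a KO summit and 22.5% with a WT summit. For a closer comparison, lone gene ends were taken, which are ends with no other protein-coding gene within 10 kb outside them, with a window of 1266 bp that matched the widened gap of median length. Of 21352 lone ends, 22.7% (22.2 to 23.3%) held a KO summit and 20.9% (20.4 to 21.5%) a WT summit. Gaps exceeded lone ends by 29.0 percentage points in KO (Newcombe interval 26.7 to 31.2) and by 27.5 points in WT (25.3 to 29.7). The windows match in width alone. A gap window reaches 500 bp into both genes, and a lone window reaches 500 bp into a single gene. These differences were not corrected for the additional gene end. Both differences lay far outside their counting error, and they stood at 28.9 points in KO and 27.5 points in WT when lone ends were weighted to the gaps' chromosomes.

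Orientation divided the gaps into classes with very different shares. A KO summit lay in 647 of 785 head-to-head gaps, or 82.4% (79.6 to 85.0%), and a WT summit in 599, or 76.3% (73.2 to 79.2%). Of 9029 lone 5′ ends, 43.8% (42.8 to 44.9%) held a KO summit and 39.5% (38.5 to 40.5%) a WT summit. The excess of head-to-head gaps was 38.6 points in KO (35.6 to 41.3) and 36.8 points in WT (33.6 to 39.8). A head-to-head gap has 2 starts where a lone end has 1. If 2 lone 5′ ends were joined and were marked independently, 68.5% of pairs would hold a KO summit and 63.4% a WT summit, both below the shares counted in head-to-head gaps. Lone windows also reach outside the gene, so the count was repeated within the 500 bp inside each start alone, which was chosen after seeing the data. There 79.7% (76.8 to 82.5%) of head-to-head gaps held a KO summit and 74.9% (71.7 to 77.9%) a WT summit, against 59.5% in KO and 55.6% in WT for 2 lone starts joined independently.

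Tandem gaps, which hold 1 start, were marked about as often as lone 5′ ends. A KO summit lay in 175 of 404 tandem gaps, or 43.3% (38.4 to 48.3%), and a WT summit in 165, or 40.8% (36.0 to 45.8%). The difference from lone 5′ ends was −0.52 points in KO (−5.38 to 4.46) and 1.37 points in WT (−3.42 to 6.33), so at this number of gaps neither a small excess nor a small deficit can be seen. Tail-to-tail gaps were nearly bare. A KO summit lay in 14 of 366, or 3.83% (2.11 to 6.33%), and a WT summit in 7, or 1.91% (0.772 to 3.90%), against 0.833% and 0.647% of 8042 lone 3′ ends. A tail-to-tail gap has both ends of a gene pair. Lone 3′ ends joined independently in pairs would give 1.66% in KO and 1.29% in WT. The joined value lay below the gaps' interval in KO and within it in WT. Gaps of unknown strand lay between the classes, at 45.6% in KO and 45.0% in WT.

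**Figure D1:**
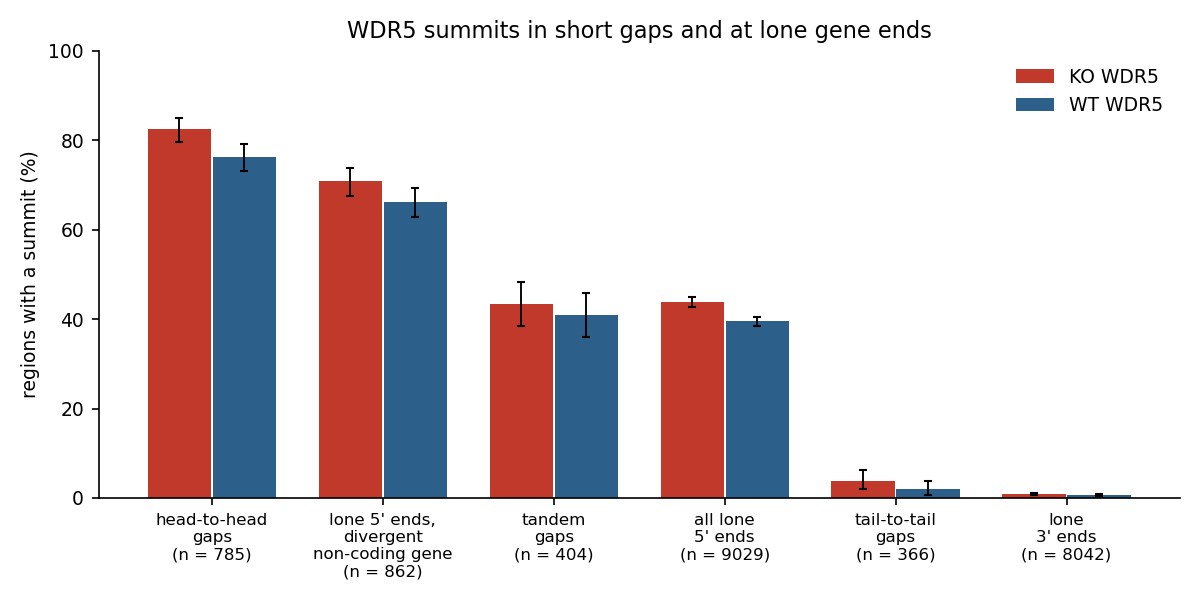
Bars give the share of regions holding at least 1 WDR5 summit, in percent, in KO and WT, by class of gap and of lone end; error bars are 95% Clopper-Pearson intervals, which cover counting error only. Head-to-head gaps stand at 82.4% in KO and 76.3% in WT, above all lone 5′ ends at 43.8% and 39.5%, and tail-to-tail gaps lie at 3.83% and 1.91%.

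The shortest and longest head-to-head gaps did not differ in share beyond counting error, but the longest class was small and the intervals were wide. In KO cells 81.5% of 455 head-to-head gaps of 1 to 200 bp were marked, 84.7% of 274 gaps over 200 and up to 500 bp, and 78.6% of 56 longer gaps. In WT cells the shares from the shortest to the longest class were 75.6%, 77.4% and 76.8%. The difference between the shortest and the longest class was 2.97 points in KO (−6.56 to 15.8) and −1.18 points in WT (−11.2 to 11.9). Among tandem gaps the shortest class was marked in 31.7% and the longest in 45.3% in KO, a difference of −13.6 points (−25.9 to 0.49). In WT these shares were 36.5% and 41.1%, a difference of −4.64 points (−17.5 to 9.42).

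Many lone 5′ ends also have a start on the other strand, of a non-coding gene. A non-coding gene whose nearest end lay within 1000 bp and that runs the other way was annotated at 862 lone 5′ ends. A KO summit lay at 70.8% of these (67.6 to 73.8%) and a WT summit at 66.1% (62.9 to 69.3%), against 41.0% in KO and 36.7% in WT of the 8167 lone 5′ ends without such a neighbour. Head-to-head gaps of coding genes still exceeded the 862 ends by 11.7 points in KO (7.58 to 15.7) and by 10.2 points in WT (5.81 to 14.5).

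CpG content moved with the result as well. The observed to expected CpG ratio of the promoter had a median of 0.881 in head-to-head gaps and 0.750 at lone 5′ ends. Gaps were classed by the higher ratio of their promoters, and lone ends by their single promoter. With a ratio of 0.6 or more, 85.2% of 745 head-to-head gaps held a KO summit and 79.2% a WT summit. At 4917 lone 5′ ends of that kind the shares were 68.8% in KO and 63.7% in WT. The excess was thus 16.5 points in KO (13.4 to 19.2) and 15.5 points in WT (12.1 to 18.6), below that of all head-to-head gaps. Below 0.6, with 33 head-to-head gaps, the excess was 19.9 points in KO (7.64 to 36.9) and 15.1 points in WT (4.54 to 31.7). Of 591 head-to-head gaps with both promoters at 0.6 or more, 86.5% (83.4 to 89.1%) held a KO summit and 82.9% (79.6 to 85.9%) a WT summit. Joining 2 such lone starts independently would give 90.3% in KO and 86.8% in WT, but the lone windows reach farther outside the gene. Within the 500 bp inside each start alone, 83.9% (80.7 to 86.8%) of these gaps held a KO summit and 81.7% (78.4 to 84.8%) a WT summit, against 81.6% in KO and 78.6% in WT for 2 such lone starts joined. Those joined values lie within the gaps' intervals in both genotypes.

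Promoters of head-to-head gaps differed from lone promoters in their motifs. Of 1426 promoters in the 300 bp table at head-to-head gaps, 29.6% held CCGGAAG, the core that ETS factors such as GABPA bind, against 11.2% of 7789 promoters at lone 5′ ends and 10.3% of all 35116 promoters in the table. The difference from lone promoters was 18.4 points (16.0 to 20.9), and it was 14.2 points (11.4 to 17.1) between promoters of gaps and of lone ends with a WDR5 summit in their window. TATAAA stood in 3.58% of head-to-head promoters, against 11.3% of lone promoters and 11.5% of all. GGGCGG stood in 72.4%, against 56.7% of lone promoters and 45.0% of all. CCAAT stood in 43.6%, against 36.8% of lone promoters and 34.6% of all. CACGTG stood in 10.9%, against 8.13% of lone promoters and 7.26% of all. The NRF1 motif stood in 3.51% of head-to-head promoters, against 1.66% of lone promoters and 1.24% of all, and the YY1 motif in 2.88%, against 1.13% and 0.849%. Between promoters of marked gaps and of marked lone ends, the difference was 7.72 points for CCAAT (4.61 to 10.9) and 1.42 points for the YY1 motif (0.46 to 2.61), but −3.44 points for GGGCGG (−6.20 to −0.80). For CACGTG, at 1.46 points (−0.49 to 3.58), and for the NRF1 motif, at 0.92 points (−0.13 to 2.19), the interval of that difference included 0. TATAAA stayed lower, at −2.21 points (−3.32 to −0.91). The 2 promoters of a gap can overlap and share bases, so the same match can count in both. The intervals of these motif differences treat them as independent and are too narrow. With the plus-strand gene of each gap alone, CCGGAAG stood in 28.8% of 725 promoters, CCAAT in 42.2% and the YY1 motif in 2.90%. Intervals were not computed on that set. Both strands were searched, and none of the 7 letter strings contains another.

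Summits in head-to-head gaps sat inside the genes and not in the gap. The best summit of a gap is the one with the highest −log10 q. In KO cells it lay within the unwidened gap in 26 of 647 marked head-to-head gaps, or 4.02%, and in WT cells in 15 of 599, or 2.50%. It lay on the left gene in 317 and on the right gene in 304 in KO, and on the left in 298 and on the right in 286 in WT, close to an even split in each genotype. The median best summit lay 193 bp inside the nearest start in KO (middle 50% of gaps 148 to 293 bp) and 195 bp inside in WT (145 to 293 bp). At lone 5′ ends the median was 180 bp inside in both genotypes, and 20.3% of best summits in KO and 19.4% in WT lay outside the gene. The windows at lone ends reach 766 bp outside the gene, and most head-to-head gaps are far shorter. In head-to-head gaps over 500 bp, 11 of 44 best summits in KO and 8 of 43 in WT lay in the gap.

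**Figure D2:**
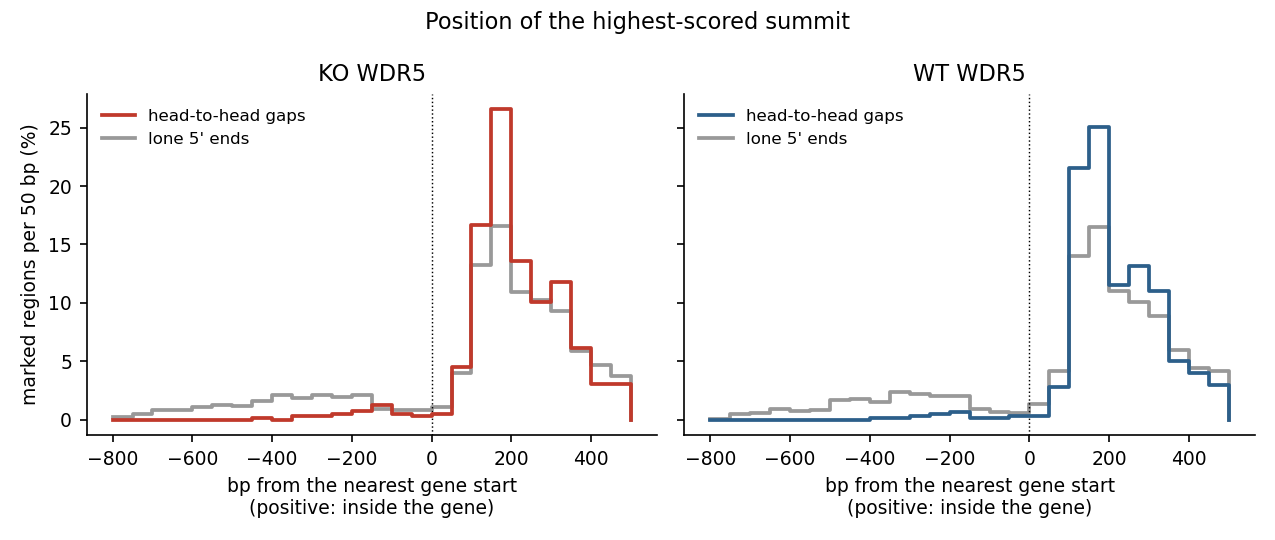
Distance in bp from the nearest gene start to the best WDR5 summit, as percent of marked regions per bin of 50 bp, for KO and WT; positive distances lie inside the gene, coloured lines are head-to-head gaps and grey lines lone 5′ ends. In KO 26.6% of head-to-head gaps fall in the bin that begins 150 bp inside the start, against 16.6% of lone 5′ ends.

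A minority of head-to-head gaps held summits on both sides of the gap's midpoint. In KO cells 181 of 647 marked head-to-head gaps, or 28.0%, held at least 2 summits, and in 177 of them summits lay on both sides of the gap's midpoint, with a median of 700 bp between the outer summits. In WT cells 162 of 599, or 27.0%, held at least 2, with 161 on both sides and a median span of 679.5 bp. Where 1 summit was called for a pair of starts, the lists do not say how the signal was shared between them. In tandem gaps the best summit was nearer the gene that starts there in 140 of 175 in KO, or 80.0% (73.3 to 85.7%), and in 138 of 165 in WT, or 83.6% (77.1 to 88.9%).

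Short gaps also took a larger share of the stronger summits. The widened gaps cover 2804053 bp and held 1357 of 21055 KO summits, or 6.45%, and 1259 of 17660 WT summits, or 7.13%. Of the best 10% of each list by −log10 q, 10.1% of KO summits and 9.97% of WT summits lay in them. Of the 100 best summits, 9 in KO and 10 in WT lay in short gaps. The median −log10 q in gaps was 9.33 in KO and 8.56 in WT, above the median of each whole list. Scores above the list median were not particular to gaps. The best summit of marked head-to-head gaps had a median of 10.8 in KO and 9.66 in WT. At marked lone 5′ ends these medians were 10.2 in KO and 9.02 in WT.

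The best-ranked head-to-head gaps paired a ribosomal protein gene with an unrelated neighbour. In the gap of 172 bp between RPL35, a protein of the large ribosomal subunit, and ARPC5L, a subunit of the actin-nucleating Arp2/3 complex (chr9:124861958-124862129), the KO summit at 124861821 ranked 3 of its list with a −log10 q of 1186, and the WT summit at 124861798 ranked 1 with 1473. The 2 summits lay 23 bp apart, 136 bp inside RPL35 in KO and 159 bp inside in WT, so both lie beyond the 5′ edge of the ARPC5L promoter printed above. The gap of RPL9 and LIAS, the lipoic acid synthase, ranked 47 in KO and 18 in WT. The gap of RPS18 and VPS52, a subunit of a vesicle-tethering complex, ranked 45 in KO and 30 in WT. RPL12 and the ubiquitin ligase LRSAM1 ranked 40 in KO and 52 in WT, and RPL18 and the sphingosine kinase SPHK2 ranked 54 and 45. RPL36A and BTK, a tyrosine kinase of B cells, ranked 71 in KO and 70 in WT. In all 6 of these gaps both best summits lay inside the ribosomal protein gene, between 126 and 178 bp from its start.

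The other 4 of the 10 best-ranked head-to-head gaps held no ribosomal protein gene. SEC31A, of the outer COPII coat, and THAP9 ranked 91 in KO and 87 in WT. DDX31 and GTF3C4, a subunit of the RNA polymerase III factor TFIIIC, ranked 110 and 98. The splicing factor SF3B6 and FAM228B ranked 117 and 108, and FAF1 and the cell cycle inhibitor CDKN2C ranked 130 and 144. Ranks are within each list, and lists of different length give no measure of change. The sources used here do not say how reads that match several places were treated, which bears on ribosomal protein genes with their many pseudogenes and on histone genes with near-identical copies.

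The 5 best-ranked tandem gaps are given next. NHLRC4-PIGQ, where PIGQ acts in the synthesis of GPI anchors, ranked 145 in KO and 151 in WT, with summits 167 and 114 bp inside PIGQ. NUMBL-COQ8B, where COQ8B serves coenzyme Q synthesis, ranked 143 and 200, with summits 118 and 112 bp inside NUMBL. ABCB6-ATG9A, where ATG9A is a membrane protein of autophagy, ranked 171 and 356, and both its summits lay within the gap and so outside ABCB6, the gene that starts there. CIRBP-FAM174C, where CIRBP is a cold-inducible RNA-binding protein, ranked 360 and 216, and STOML2-ATOSB ranked 409 and 311.

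In tail-to-tail gaps, 4 of 366 were marked in both genotypes, all of them named here. RPL7L1-PEX39 ranked 5194 in KO and 7940 in WT, H2AC20-H2AC21 ranked 13446 and 6962, PLCB3-BAD 8162 and 15150, and TMEM88-NAA38 18809 and 11680. PEX39 is 557 bp long and H2AC21 497 bp, so a window at their 3′ end reaches close to their 5′ end. Of the best summits in tail-to-tail gaps, 5 of 14 in KO and 3 of 7 in WT lay within 1000 bp of a start in the promoter table, and 2 in KO and 0 in WT lay within the unwidened gap. With genes of at least 2000 bp alone, 2.08% of tail-to-tail gaps in KO were marked, against 0.644% of lone 3′ ends, a difference of 1.43 points (0.346 to 3.59). In WT the shares were 1.19% and 0.486%, a difference of 0.70 points (−0.05 to 2.53). With genes of at least 5000 bp the interval included 0 in both genotypes, with 1.18% against 0.459% in KO and 0.784% against 0.402% in WT. These comparisons by gene length set gaps with both gene ends against single lone ends. They were not corrected for that, so they show no excess beyond having more ends.

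Gaps marked in a single genotype were set beside each other next. A summit lay in 925 gaps in both genotypes, in 149 in KO and not WT, in 81 in WT and not KO, and in 922 in neither. Over all gene ends, 4.79% held a KO and no WT summit and 2.89% a WT and no KO summit. KO held the summit in 64.8% (58.2 to 70.9%) of these 230 gaps with 1 genotype marked, against 62.0% (59.6 to 64.4%) at lone ends. The difference of 2.77 points had an interval from −4.01 to 9.12, so a lean of gaps toward KO beyond that of lone ends was not resolved. When both lists were taken at the length of the shorter one, 55.2% (48.5 to 61.7%) of such gaps were marked in KO, an interval that includes an equal split. At lone 5′ ends the share at equal length was 58.1% (55.4 to 60.8%), an interval that does not. With −log10 q of at least 5, it was 66.9% (61.4 to 72.1%) of such gaps. That filter left 12789 KO and 10923 WT summits, so the lists again differed in length.

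Among head-to-head gaps a summit lay in both genotypes in 562, in KO and not WT in 85, in WT and not KO in 37, and in neither in 101. KO made up 69.7% (60.7 to 77.7%) of those marked in a single genotype, against 64.8% at lone 5′ ends, a difference of 4.86 points (−4.15 to 12.8). Strand came from the authors' deposited table for a few genes, and with strand from the promoter table alone the counts were 75 in KO and 37 in WT, or 67.0% in KO. At equal list lengths they were 76 in KO and 54 in WT, or 58.5% (49.5 to 67.0%). With −log10 q of at least 5 they were 128 in KO and 62 in WT, or 67.4% (60.2 to 74.0%).

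A mark at a head-to-head gap was more often present in both libraries. Of the head-to-head gaps marked in KO, 86.9% were marked in WT, against 78.2% of lone 5′ ends marked in KO, a difference of 8.64 points (5.55 to 11.4). Of those marked in WT, 93.8% were marked in KO, against 86.9% of lone 5′ ends, a difference of 6.95 points (4.49 to 8.98). A gap with 2 starts has 2 chances to hold a summit in the other library, and these shares were not corrected for that. Where both genotypes marked a head-to-head gap, the best summits lay a median of 64 bp apart, against 62 bp at lone 5′ ends. The median −log10 q of gaps marked in both was 11.9 in KO and 10.4 in WT, and of gaps marked in a single genotype it was 6.17 in KO and 5.86 in WT. Summits of gaps marked in 1 list alone were thus weaker than those of shared gaps and close to the median of their whole list.

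**Figure D3:**
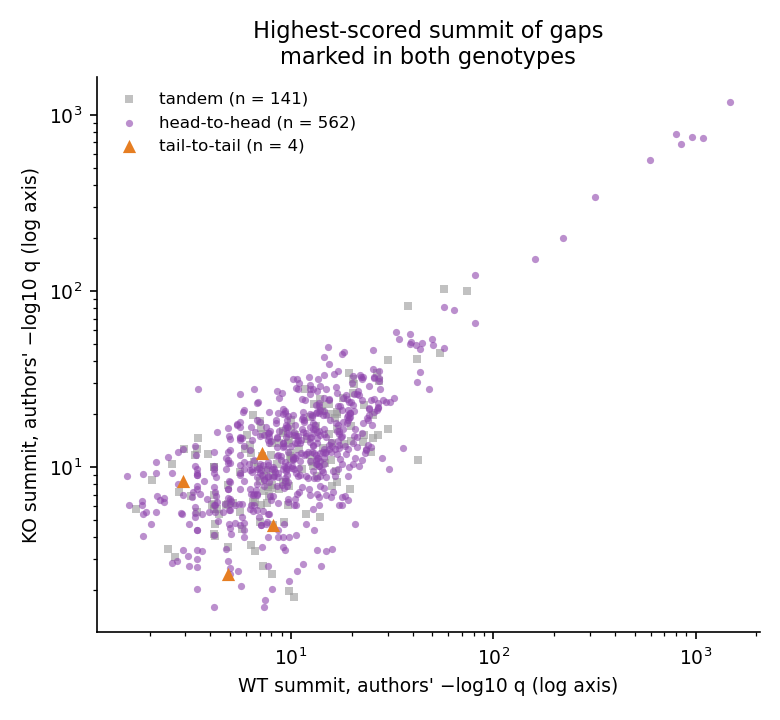
Highest −log10 q per gap, as the authors' peak caller gave it, in KO (vertical) against WT (horizontal), both on log axes, for gaps marked in both genotypes. Each point is 1 gap, 562 of them head-to-head, 141 tandem and 4 tail-to-tail. The 218 such gaps of unknown strand are not shown. Among the points shown, the strongest are head-to-head, up to RPL35-ARPC5L at 1186 in KO and 1473 in WT, and the tail-to-tail points lie near the low end.

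Gaps with a summit in 1 list alone were divided between those with and those without a partner near the window. A KO summit without a WT summit within 5 kb was found in 80 of the 149 gaps, 53 of them head-to-head. A WT summit without a KO summit within 5 kb was found in 35 of the 81 gaps, 18 of them head-to-head. At lone ends marked in a single genotype, the same counts were 544 of 1009 in KO and 212 of 618 in WT. No interval was computed for these shares, so a lack of a partner summit is not shown to be particular to gaps. Of the 85 head-to-head gaps marked in KO and not WT, 26 lay within 1 kb of a WT summit, and of the 37 marked in WT and not KO, 15 lay within 1 kb of a KO summit.

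The 10 best-ranked gaps with a KO summit and no WT summit within 5 kb are given next. TIMELESS-MIP, a tandem gap in which TIMELESS protects replication forks, ranked 2827 in KO with a −log10 q of 17.3. LIG4-ABHD13, in which LIG4 is the DNA ligase of non-homologous end joining, ranked 2987 with 16.7, and its KO summit lay 283 bp inside ABHD13. The tail-to-tail histone gap H2AC16-H1-5 ranked 4117 with 14.0. RECQL5-SAP30BP, in which RECQL5 is a RecQ helicase, ranked 5030, and the ciliary gene IQCB1 with EAF2, an elongation factor partner, ranked 4201. The other 5 were ULK3-SCAMP2 at 4199, ECD-FAM149B1 at 4723, ZFYVE28-CFAP99 at 4860, TNNC2-SNX21 at 4933 and PREPL-CAMKMT at 5487.

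The converse 10 gaps had a WT summit and no KO summit within 5 kb. RPUSD4-FAM118B, in which RPUSD4 is a mitochondrial pseudouridine synthase, ranked 3321 in WT with a −log10 q of 13.7, and the summit lay 142 bp inside RPUSD4. RAD17-MARVELD2, a tandem gap in which RAD17 loads the DNA damage checkpoint clamp, ranked 4586 with 11.3. MSRB1-RPL3L ranked 5656, and DCTN3-ARID3C and RBM18-MRRF tied at 6399. RMDN1-CPNE3 ranked 6636, RRP8-ILK 7380, TFB2M-CNST 7557, NUP62CL-DNAAF6 8152 and XAB2-PET100/STXBP2 8584. RRP8 methylates ribosomal RNA, TFB2M starts transcription in mitochondria, and MRRF recycles mitochondrial ribosomes.

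The authors' deposited table lists transcripts that its name calls EMBOW-dependent new target genes of WDR5. It was chosen on these samples, so its overlap with KO marks is a description. A 5′ end from the authors' deposited table lay in 93 of 149 gaps marked in KO and not WT, or 62.4%, and in 3 of 81 gaps marked in WT and not KO. It lay in 11.8% of gaps marked in both genotypes and in 4.34% of gaps marked in neither, by the authors' deposited table. In 26 of the 85 head-to-head gaps marked in KO alone, or 30.6%, the authors' deposited table listed a 5′ end on both strands. A KO summit in such a gap lies beside 2 listed starts. The share was 2.09% at lone 5′ ends marked in KO alone. A lone end has a single coding start by definition, so these shares are no like comparison. Strand of some genes came from that same table. With strand from the promoter table alone, 75 head-to-head gaps were marked in KO and not WT.

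Counts were also made over gene lists. The lists were chosen with earlier results in view, and the shares over all gaps, 51.7% in KO and 48.4% in WT, stand for comparison. The lists differ in orientation, and these shares were not matched for it. Head-to-head gaps were 785 of all 2077 gaps. They were 19 of 30 for oxidative phosphorylation, 15 of 25 for DNA repair and replication and 6 of 20 for proteasome subunits, for example. Cytosolic ribosomal proteins had an edge in 29 gaps, of which 22 held a KO summit and 17 a WT summit. Among the 7 marked in KO and not WT, 4 were tail-to-tail gaps with weak summits, RPS27-NUP210L, WDR38-RPL35, RPL7A-SURF1 and RPS21-CABLES2, at a −log10 q of 1.87, 1.74, 2.63 and 2.67. Mitochondrial ribosomal proteins had 34 gaps, with 19 marked in KO and 21 in WT. Subunits of oxidative phosphorylation had 30 gaps, with 20 marked in KO and 18 in WT, and HYCC2-NDUFB3, a complex I gene, was among the 2 marked in KO alone. Chaperones had 24 gaps, with 13 marked in each genotype, and proteasome subunits had 20, with 7 marked in KO and 9 in WT. ZNF genes, most of them zinc finger repressors, had 48 gaps, with 24 marked in KO and 26 in WT.

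Genes of DNA repair and replication had 25 gaps, of which 18 held a KO summit and 13 a WT summit. Over all gaps, 7.17% were marked in KO and not WT and 3.90% in WT and not KO. The 6 gaps of this list marked in KO and not WT held XRCC4, RAD50, FANCF, RAD9B, RAD51C and POLD1, which act in end joining, break sensing, crosslink repair, checkpoint signalling, homologous recombination and replication. In IL5-RAD50 a WT summit lay 46 bp from the window and in VPS29-RAD9B 589 bp from it, and the KO summit of NR1H2-POLD1 had a −log10 q of 2.84. The only gap of this list marked in WT and not KO was RAD17-MARVELD2. None of the 7 gaps of olfactory receptors, the 2 of protocadherins and the 2 of HOX genes held a WDR5 summit in either genotype. Only 1 of these gaps was head-to-head, and keratin genes had no short gap.

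Replication-dependent histone genes, which lie in clusters and are transcribed in S phase, had 20 gaps, and 18 of them had histone genes on both sides. A KO summit lay in 17 and a WT summit in 12. The 5 marked in KO and not WT were H3C2-H2AC4, H3C4/H2AC7-H2BC7, H3C7-H2BC9, H2BC13-H2AC13 and H2AC16-H1-5, and none was marked in WT and not KO, beside 7.17% and 3.90% of all gaps. The lean of all gaps toward KO was within counting error at equal list length, but not with a −log10 q of at least 5. Their −log10 q in KO was between 3.90 and 14.0, and in H3C4/H2AC7-H2BC7 the nearest WT summit lay 311 bp from the widened gap. The best-ranked shared histone pair by KO rank, H2AC25-H2BC26, ranked 2791 in KO and 3540 in WT. The unmarked pairs were H2BC8-H2AC8, H2AC14-H2BC14 and H3C11-H4C13. For H2BC8-H2AC8 the nearest KO summit lay 7902 bp and the nearest WT summit 8009 bp from the widened gap, although the authors' deposited table lists a 5′ end on both strands there. Most histone gaps lie close together in the same clusters, so they are not independent of each other.

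Well-known bidirectional pairs were looked up by name. COL4A1-COL4A2, the basement membrane collagens that share a promoter, was marked at a distance of 11 bp in both genotypes, with rank 1829 and a −log10 q of 21.2 in KO and rank 9627 and 5.86 in WT. SURF1-SURF2, in which SURF1 helps assemble cytochrome oxidase, ranked 3036 in KO and 1547 in WT. TAP1-PSMB9, the peptide transporter and an immunoproteasome subunit, ranked 7966 and 7751. SARS2-MRPS12, a mitochondrial tRNA synthetase and a mitochondrial ribosomal protein, had a KO summit at rank 18655, and the nearest WT summit lay 1207 bp from its window. The gap of 104 bp between the mitochondrial chaperonin genes HSPD1 and HSPE1 (chr2:197500275-197500378) ranked 4129 in KO and 2561 in WT, with summits 165 bp inside HSPE1 in KO and 204 bp inside in WT. PAICS/PPAT has no gap of 1 to 1000 bp in this annotation.

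Of the 101 head-to-head gaps with no WDR5 summit, 61 had none of either genotype within 5 kb. Of promoters at unmarked head-to-head gaps, 16.7% held CCGGAAG, 50.6% held GGGCGG and 6.90% held TATAAA. Over all promoters of head-to-head gaps these shares were 29.6%, 72.4% and 3.58%. The motif CCGGAAG stood in 32 of 142 promoters, or 22.5%, at head-to-head gaps marked in KO alone. It stood in 5 of 66 promoters, or 7.58%, at those marked in WT alone. Both promoters of a gap were counted and can share bases. No interval was computed for this contrast of small counts.

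Summits of tagged EMBOW were rare in short gaps. Only 1 of 2077 gaps held an EMBOW-F summit, or 0.0481% (0.00122 to 0.268%), against 0.979% (0.851 to 1.12%) of lone ends and a background of 0.611% of all gene ends. The difference from lone ends was −0.931 points (−1.08 to −0.675), and −0.863 points when lone ends were weighted to the gaps' chromosomes. The interval included 0 among summits with a −log10 q of at least 5, at −0.117 points (−0.173 to 0.0713), and at equal list length, at −0.126 points (−0.184 to 0.0623). Head-to-head gaps, at 0.127%, also did not differ beyond counting error from lone 5′ ends with a divergent non-coding gene, at 0.232%, with a difference of −0.105 points (−0.724 to 0.510). With 0 counts, tandem gaps allow a share of up to 0.743%, tail-to-tail gaps up to 0.820% and gaps of unknown strand up to 0.575%. EMBOW-F summits were also scarce around the gaps: 5.44% of gaps had one within 100 kb, against 16.0% of lone ends, and the median distance was 2404720 bp, against 1160110 bp. Within 5 kb the shares were 0.481% of gaps and 4.32% of lone ends. Gaps lie where genes are dense, and no comparison at matched gene density was made.

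**Figure D4:**
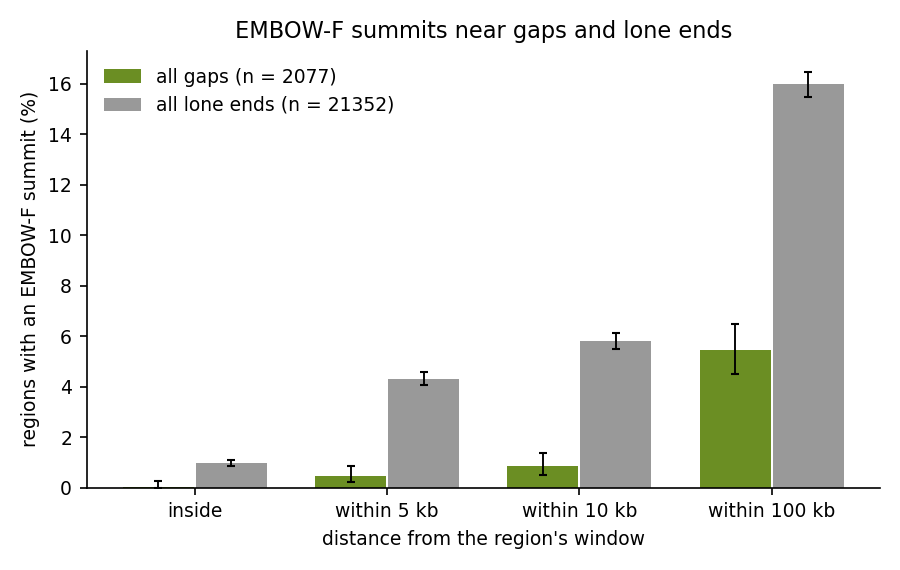
Bars give the share of short gaps and of lone gene ends with an EMBOW-F summit inside the window or within 5, 10 or 100 kb of it, in percent; error bars are 95% Clopper-Pearson intervals for counting error. Gaps lie below lone ends at each of these distances, for example 5.44% against 16.0% within 100 kb.

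The only gap with an EMBOW-F summit was HNRNPDL-ENOPH1 (chr4:82430463-82430589, 127 bp, head-to-head), between an RNA-binding protein and an enzyme of methionine salvage. Its EMBOW-F summit lay at 82429999, 463 bp inside HNRNPDL, with a −log10 q of 2.70 and rank 58561 in that list. The best KO WDR5 summit lay at 82430752, 162 bp inside ENOPH1, with 9.56 and rank 7112. The best WT summit lay at 82430118, 344 bp inside HNRNPDL, with 16.1 and rank 2401. The EMBOW-F summit was thus on the HNRNPDL side, weak for its list, and 1 summit in 2077 gaps gives no measure of sharing with WDR5.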

How the data were processed

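Summits were analysed from WDR5 ChIP-seq of EMBOW KO and WT HEK293T cells and from the anti-FLAG ChIP of EMBOW-FH (the EMBOW-F list). Samples were grouped by the labels, 1 library per group. The deposited −log10 q values are the authors' scores per summit, read as such because the lowest value in each deposited list lay just above 1.30, the −log10 of a q of 0.05. They were used only to rank or filter within a list. The submitters' processing notes name hg38, MACS2 2.2.7.1, Bowtie2 2.4.5 and deepTools 3.5.1 without saying what each did. Controls used in calling, pooling and read depth are not given in the sources used here. EMBOW-F summits come as a file of the whole series and were matched by name to the only tagged-EMBOW ChIP. List length can follow library depth, so lists were also compared at equal length.

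Gene ends came from a RefSeq table (GRCh38.p14), with overlapping genes merged into 17257 blocks. Strand was read for 15812 genes from the RefSeq promoter table and for 256 more from transcripts of the authors' deposited list with both ends within 100 bp; 991 of 991 genes in both sources had the same strand, and 3906 genes had none. That list was chosen on these samples, so strand from the promoter table alone was an added alternative. Lone-end windows reached 500 bp inside and 766 bp outside the gene. Shares have Clopper-Pearson and differences Newcombe 95% intervals. The limit at a count of 0 is 3 counts of the total. Software was bedtools 2.31.1, scipy 1.17.1, pandas 2.3.3, numpy 2.4.6 and matplotlib 3.10.9 under Python 3.11.15. On simulated data 251 planted gaps were recovered with 0 errors, and bedtools counts differed in 0 regions. There were 0 unused columns of per-sample values.

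The gaps, gene lists and pairs were chosen with earlier results of these data known. Named gaps were the 10 best by mean rank among head-to-head gaps, up to 5 each among tandem and tail-to-tail gaps, the 10 best of each genotype with no partner summit of the other within 5 kb, every gap with an EMBOW-F summit, fixed pairs, and members of gene lists; a pair that the rule takes is not reported here. Alternatives changed the widening, the longest gap, the lone distance, the lowest −log10 q, list length, LOC genes, the source of strand, the chromosomes and gene types behind lone ends, CpG content and gene length.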

Additional observations from a re-analysis of the deposited data

How the results depend on the processing

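The difference of gaps from lone ends in WDR5 kept its direction under every alternative run, and so did that of head-to-head gaps except where strand came from the authors' transcripts alone. That setting left 19 head-to-head gaps and gave 28.8 points in KO and −1.61 points in WT, on genes chosen from these lists. Other values that moved are grouped here by setting. Widened by 250 bp, 37.5% of gaps held a KO, 34.7% a WT and 0% an EMBOW-F summit, differences from lone ends were 22.4, 20.8 and −0.585 points, head-to-head differences were 30.0 in KO and 27.0 in WT, and KO held 57.6% of single marks. Widened by 1000 bp, the shares were 56.4% in KO and 53.0% in WT, and the EMBOW-F difference was −1.49. With gaps up to 500 bp, the shares were 57.6% in KO and 53.9% in WT and the differences 35.0 and 33.1. With −log10 q of at least 5, the shares were 44.1% in KO, 39.0% in WT and 0% in EMBOW-F, the differences 25.5, 22.8 and −0.117 (interval −0.173 to 0.0713), and head-to-head differences 35.1 in KO and 31.9 in WT. At equal list length, EMBOW-F stood at 0% with a difference of −0.126 (−0.184 to 0.0623), and KO held 55.2% of single marks. The EMBOW-F difference was −1.11 with lone ends over 50 kb from the next gene. With lone ends free of genes of any type, which was chosen after seeing the data, differences were 31.7 in KO, 30.4 in WT and −1.11 in EMBOW-F, and head-to-head differences 41.6 in KO and 40.4 in WT. The cause of these shifts was not tested. Of 73 alternative values, 38 stayed within the counting interval, 34 moved and 1 reversed. No paired analysis was possible because each group has 1 library. Leaving out a replicate was not run for the same reason. Read depth is unknown, and a summit absent from a list is not shown to be absent from the chromatin.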
